A study of Homo sapiens with 6 samples.

Results

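The 3 untreated samples of COV434 cells were described here, out of 6 samples of total RNA in the whole study, and they were taken as a group by their control label. COV434 is a human ovarian line that the study uses as immortalized granulosa cells (GCs) and that the labels list as granulosa cells of WT genotype. The cells were grown in DMEM with 10% serum at 5% CO2 and 37 °C, and the controls received no 4HC, which the study takes as 4-hydroxycyclophosphamide, an active metabolite of cyclophosphamide (CTX). The other 3 samples were treated with 15 µM 4HC for 24 h and enter no comparison below. The controls are 1 cell line in 1 culture condition, and the sources used here do not say whether the 3 samples were grown separately, so that the spread between them may be technical.

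GCs surround the oocyte in the follicle. They feed the germ cell, respond to follicle-stimulating hormone through FSHR, turn androgens into estradiol with the aromatase CYP19A1, and secrete inhibins and anti-Müllerian hormone (AMH). The forkhead factor FOXL2 and the orphan nuclear receptors NR5A1 and NR5A2 are among the transcription factors that keep this identity. A cell line need not keep the program of the tissue it came from, and its level of each such gene can be read from the untreated cells alone.

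Levels are given as TPM, a unit of transcript abundance that is scaled to transcript length and sums to 1000000 in each sample, so that they can be compared between genes. Values with ± are means and SD over the 3 controls (n = 3). Expected counts, which estimate the number of reads from a gene, summed to 16352898, 16374203 and 16702316 in controls 1 to 3. Of 16798 coding genes in the table, 11109 had a level of at least 1 TPM in each control (66.1%) and are called expressed below. A level of at least 10 TPM in each control was reached by 7741 genes (46.1%), 100 TPM by 1345 genes (8.01%) and 1000 TPM by 119 genes (0.708%). Median levels over all genes were 8.23, 8.14 and 8.13 TPM in the 3 samples. Another 425 genes (2.53%) lay on both sides of 1 TPM between the samples.

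TMSB4X, which encodes the actin monomer binding peptide thymosin beta 4, had the highest level of all genes (NCBI Gene 7114, chrX:12975110-12977223, GRCh38). Its level was 42802, 42018 and 40072 TPM in controls 1 to 3, or 4.16 ± 0.141% of all TPM. NTS, the gene of the secreted neuropeptide neurotensin (NCBI Gene 4922, chr12:85874295-85882992), followed at 14263, 13787 and 14386 TPM. CRYAB, the gene of the small heat shock protein alpha B-crystallin (NCBI Gene 1410, chr11:111908564-111923740), had a level of 12625, 12374 and 12195 TPM. The ranges of TMSB4X, NTS and CRYAB did not overlap with each other, while CRYAB overlapped with RPS29, a ribosomal protein gene at 12062 ± 238 TPM. CRYAB lies over HSPB2 in the gene table, a small heat shock gene at 64.4 ± 5.25 TPM, and the sources used here do not say whether counting used strand.

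Sequences upstream of the start of the TMSB4X and NTS genes are shown because these genes led all others and their starts differ in base composition. Each run holds the 250 bases before the RefSeq gene start (GRCh38.p14), chrX:12974860-12975109 for TMSB4X and chr12:85874045-85874294 for NTS, both on the plus strand, written 5′ to 3′. Capitals mark matches, on either strand, to the TATA motifs TATAAA and TATATA, the NF-Y motif CCAAT, the GC box GGGCGG, the CRE motif TGACGTCA and its variant TGACATCA.
TMSB4X: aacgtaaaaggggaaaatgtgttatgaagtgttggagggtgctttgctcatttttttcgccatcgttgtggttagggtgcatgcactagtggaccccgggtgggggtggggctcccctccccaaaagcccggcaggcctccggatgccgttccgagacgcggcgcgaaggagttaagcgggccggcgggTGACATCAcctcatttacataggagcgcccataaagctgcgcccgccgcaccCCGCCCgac
NTS: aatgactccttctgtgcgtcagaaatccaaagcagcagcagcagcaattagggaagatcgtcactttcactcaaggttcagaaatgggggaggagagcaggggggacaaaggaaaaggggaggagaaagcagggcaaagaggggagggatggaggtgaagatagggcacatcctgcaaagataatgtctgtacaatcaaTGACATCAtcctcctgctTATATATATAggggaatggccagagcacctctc
The NTS run holds 3 overlapping TATATA matches that begin between 33 and 29 bases before the start, and 1 TGACATCA that begins 51 bases before it. The TMSB4X run also holds 1 TGACATCA, which begins 61 bases before the start, and 1 GGGCGG on the other strand. Over the 300 bases from 250 before to 50 after the start, TMSB4X had 27 CpG dinucleotides and NTS had 2. Among all 13447 genes with such a sequence, 2.45% held TATATA, 1.89% held TGACATCA and 64.2% held GGGCGG within the 300 bases. The motifs were chosen with earlier results known, and a match is not evidence of binding.

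The 25 genes of highest level took 22.6 ± 0.190% of all TPM, and the first 100 took 43.2 ± 0.303%. Ribosomal proteins of the cytosol filled most of these places. All but 1 of their 86 listed genes were expressed and 83 had at least 100 TPM in each control, and together they held 27.3 ± 0.186% of TPM. RPS18 (9777 ± 129 TPM) and RPS2 (9017 ± 315 TPM) were next after RPS29. Also among the first 25 were EEF1A1, the elongation factor that brings tRNA to the ribosome (9802 ± 244 TPM), the glycolytic enzyme gene GAPDH (6966 ± 302 TPM) and the actins ACTB (6702 ± 169 TPM) and ACTG1 (6290 ± 129.7 TPM). In the order of the first 25 genes, the ranges of the 3 samples overlapped in 16 of 24 pairs of neighbours. Many of these genes have processed copies elsewhere in the genome, which makes the assignment of their reads uncertain.

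**Figure D1:**
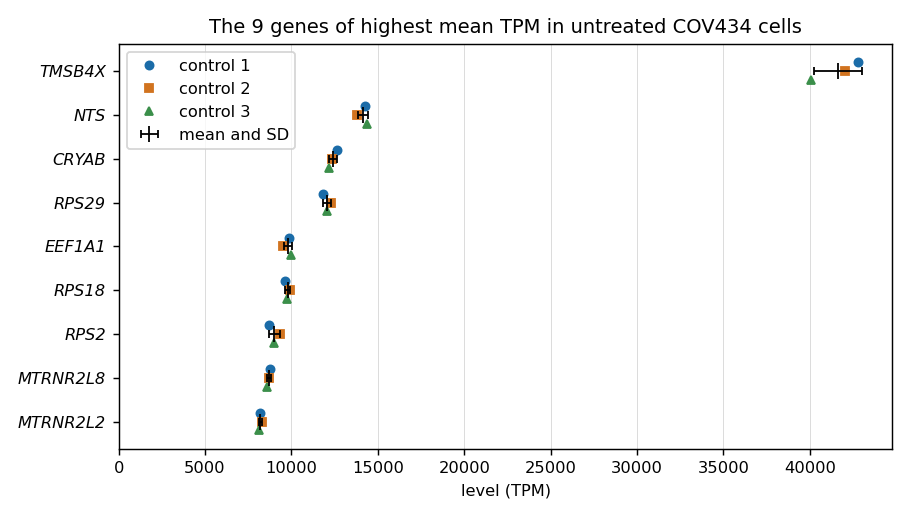
Level in TPM of the 9 genes with the highest mean over the 3 controls, with a marker for each control and a black bar for the mean and SD. TMSB4X stands apart at 40072 to 42802 TPM, and the other 8 genes lie between 8123 and 14386 TPM.

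MTRNR2L8 and MTRNR2L2 also stood among the first 25, at 8684 ± 113 TPM and 8207 ± 97.4 TPM. These nuclear loci are near copies of the mitochondrial 16S rRNA gene, and no gene of the mitochondrial genome was analysed here, so that reads of mitochondrial RNA cannot be told apart from theirs. RPS29 shows how much the scale by length matters for short transcripts, since its 12062 TPM rested on 6088 counts, the 375th highest count, whereas EEF1A1 had the highest count of all at 330374. By counts TMSB4X came next with 145063, followed by NTS with 140505.

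Several genes of restricted expression were as abundant as housekeeping genes, and the following were chosen after their values were seen. TMEM100, a membrane protein gene known from vessels and lung, had a level of 1807, 1744 and 1769 TPM. HGF, which encodes hepatocyte growth factor, was at 1187, 1109 and 1182 TPM. VGLL2, a cofactor of TEAD transcription factors that is known from skeletal muscle, was at 998, 988 and 1041 TPM. The 3 samples were close to each other for each of these genes, and none had a control below 988 TPM. FAM9C on the X chromosome had 1243 ± 16.6 TPM, the phosphatidylcholine transfer protein gene PCTP had 1139 ± 15.0 TPM, and the tropomyosin gene TPM2 had 1607 ± 35.4 TPM. The secreted protein IGFBP7 (808 ± 17.7 TPM), the heparan sulfate proteoglycan GPC4 (661 ± 21.8 TPM) and the fibrinogen chain FGG (455 ± 10.8 TPM) were also high.

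The GC label was checked against its markers. Of 16 listed transcription factors of GCs, 7 were expressed (43.8%, against 66.1% of all genes), and of 22 hormones, receptors and steroid enzymes 10 were expressed (45.5%). The median level was 0.308 TPM in the first list and 1.07 TPM in the second, against 8.15 TPM over all genes. Of the defining members of both lists, WT1, ESR2 and AMH were expressed and the other 9 were not. TCF21, AMHR2 and CYP11A1 were written into these lists but are not among the listed genes, so they are not in these counts.

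FOXL2, on chr3:138944224-138947137, had a count of 0 in each control. A count of 0 allows up to 3 counts in a library, or 0.180 to 0.183 CPM (counts scaled to library size). FSHR had counts of 0, 1 and 0, and CYP19A1 had counts of 0, 1 and 0. STAR, whose protein carries cholesterol into mitochondria for steroid synthesis, had counts of 1, 1 and 0. NR5A1 (steroidogenic factor 1) had counts of 3, 1 and 0, and GATA4 had counts of 0, 0 and 2. The inhibin subunits INHBA and INHBB had levels of 0.177 ± 0.0643 TPM and 0.0333 ± 0.0351 TPM, and INHA had 1.73, 1.08 and 0.720 TPM. FOXL2, FSHR, CYP19A1, STAR, NR5A1 and GATA4 were thus at 3 counts or fewer in every control, and INHA fell on both sides of 1 TPM. The data go against the label for most defining markers of GCs, and in bulk RNA fewer cells of a type and less RNA per cell cannot be told apart.

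Other genes of the GC lists were abundant. NR5A2, also called LRH-1, an orphan receptor that drives steroid enzyme genes in GCs, had a level of 133, 125 and 131 TPM. WT1, a zinc finger factor of the early gonad and kidney, had a level of 134, 131 and 135 TPM, and its samples overlapped with those of NR5A2. SCARB1, the receptor for high-density lipoprotein, had 122.8 ± 2.65 TPM, FDXR, which feeds electrons to mitochondrial steroid enzymes, had 87.5 ± 2.30 TPM, and KITLG, the ligand by which GCs signal to the oocyte, had 38.6 ± 1.88 TPM. HSD17B1, the enzyme that reduces estrone to estradiol, was at 24.6, 23.8 and 19.2 TPM. AMH was lower and more variable at 6.73, 5.34 and 3.94 TPM, from 106, 85 and 63 counts. In the KEGG category of ovarian steroidogenesis 19 of 44 genes were expressed (43.2%), while in the category of sterol synthesis (steroid biosynthesis) 17 of 19 were (89.5%).

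The start of FOXL2 is shown because the gene was silent in all controls while its upstream region was rich in CpG. The run holds chr3:138947138-138947387 on the minus strand (GRCh38.p14), written 5′ to 3′ on the strand of the gene, with capitals as above.
FOXL2: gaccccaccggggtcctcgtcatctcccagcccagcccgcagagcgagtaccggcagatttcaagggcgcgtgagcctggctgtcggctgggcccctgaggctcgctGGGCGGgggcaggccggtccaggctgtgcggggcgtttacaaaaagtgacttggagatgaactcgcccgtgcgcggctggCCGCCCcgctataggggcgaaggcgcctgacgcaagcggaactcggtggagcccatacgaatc
Its only matches were 2 of GGGCGG, 1 on each strand. The 300 bases held 28 CpG, with a ratio of observed to expected CpG of 0.811, close to the median of expressed genes (0.854, quartiles 0.725 and 0.961) and above that of the other genes (0.515).

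Markers of other cell types were read in the same way. In the theca and stroma list 6 of 15 genes were expressed (40.0%), in the mesenchyme list 6 of 11 (54.5%), in the neural and neuroendocrine list 13 of 31 (41.9%), in the Sertoli cell list 2 of 7 (28.6%), in the blood and endothelium list 2 of 11 (18.2%), in the epithelium list 2 of 16 (12.5%) and in the oocyte and germ cell list 1 of 11 (9.09%). Each share was below the 66.1% of all genes. Markers that are not among the listed genes are left out of these counts, which for oocyte and germ cell were 11 of 22. No list had all of its genes expressed, and only in the mesenchyme list were all of the defining members, here 4, expressed.

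The smooth muscle actin gene ACTA2 (323 ± 11.7 TPM) and TAGLN (193 ± 6.80 TPM) led the theca and stroma list. Of its 6 defining members 3 were expressed. The theca markers CYP17A1 and INSL3 were not, with means of 0.0233 and 0.567 TPM. The fibrillar collagen gene COL3A1 was at 85.1 ± 2.69 TPM and the small proteoglycan genes LUM and DCN were at 43.2 ± 1.68 TPM and 11.5 ± 0.868 TPM, whereas COL1A1, the chain of type I collagen that fibroblasts make in large amounts, was at 0.257 ± 0.0115 TPM. COL5A2, next to COL3A1 on chromosome 2, had 129 ± 3.33 TPM. Over the whole collagen family 13 of 42 genes were expressed.

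Vimentin (VIM), the intermediate filament of mesenchymal cells, had a level of 24.97, 24.1 and 26.1 TPM, and ZEB1, a repressor of epithelial genes, had 16.8, 13.8 and 15.3 TPM. The other defining members of the mesenchyme list, CDH2 and FN1, were lower, with means of 5.78 and 1.27 TPM. Of 5 SNAI and ZEB genes only 1, ZEB1, was expressed. The epithelial adhesion genes EPCAM and CDH1 had counts of 1, 0 and 0 and of 3, 1 and 3. The keratin gene of highest level was KRT8 (6.35 ± 1.25 TPM), and 3 of 26 keratin genes were expressed. By contrast DSC1 and DSG1, desmosomal cadherins known from skin, had levels of 442 ± 22.98 TPM and 242 ± 11.9 TPM. These 2 genes were named after their values were seen.

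**Figure D2:**
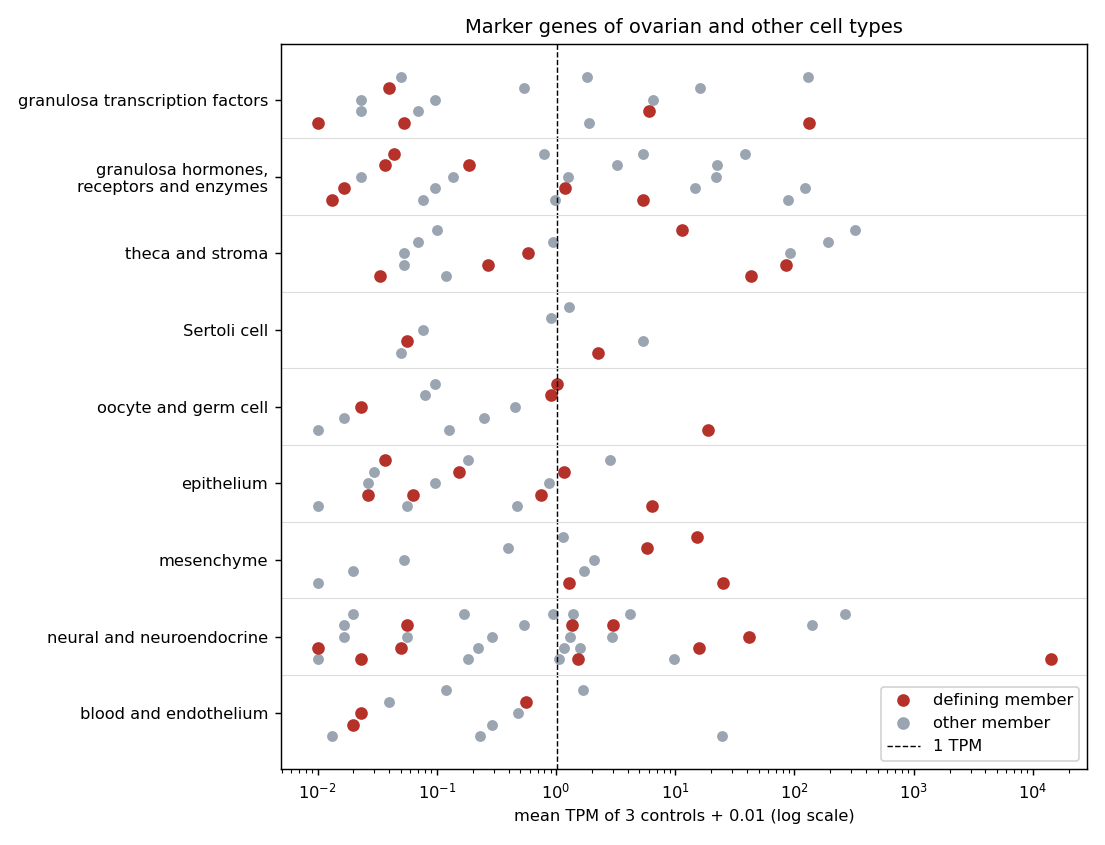
Mean level of marker genes over the 3 controls on a log scale after adding 0.01 TPM, 1 row per list, with defining members in red and other members in grey. Most defining members of the 2 GC rows lie left of the 1 TPM line, and the point far right in the neural row is NTS.

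In the neural list NTS was followed by STMN1 (264 ± 8.13 TPM) and STMN2 (142 ± 2.21 TPM), which encode microtubule regulators, and by the neuronal tubulin gene TUBB3 (41.8 ± 3.06 TPM). SYP, a synaptic vesicle protein that pathologists use as a neuroendocrine marker, had a level of 15.97, 16.12 and 15.45 TPM. The granule protein genes CHGA and CHGB were at 1.52 ± 0.140 TPM and 1.35 ± 0.0737 TPM. None of the 15 neural bHLH genes in the table was expressed. In the blood and endothelium list TEK, the angiopoietin receptor, was highest (24.8 ± 0.742 TPM), and PECAM1, CDH5 and VWF were at or below 0.0133 TPM. ZP3, a gene of the egg coat, was the only expressed gene of the germ cell list (18.7 ± 1.94 TPM).

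SWI/SNF complexes slide and evict nucleosomes with 1 of 2 alternative ATPases, SMARCA4 (BRG1) and SMARCA2 (BRM), built into a frame of further subunits. Of 29 subunit genes 26 were expressed (89.7%) and the median level was 42.8 TPM. SMARCA2 (chr9:2015343-2193624) had counts of 2, 0 and 3, or 0.04, 0 and 0.05 TPM. SMARCA4 (chr19:10960999-11065258) had a level of 6.90, 8.5 and 7.28 TPM, from 374, 461 and 401 counts. Both ATPase genes were thus below other core subunits, with SMARCB1 at 26.9 ± 0.353 TPM, SMARCE1 at 42.8 ± 1.52 TPM, ARID1A at 53.3 ± 0.766 TPM and SMARCC1 at 60.5 ± 1.11 TPM. Among all subunit genes DPF3, SMARCA2, ACTL6B and BICRA were lower than SMARCA4, and its range did not overlap with that of either neighbour. An mRNA level does not give the amount of protein. The catalytic subunit of polycomb repressive complex 2, EZH2, was at 45.0 ± 1.33 TPM, and all 11 genes of that list were expressed.

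**Figure D3:**
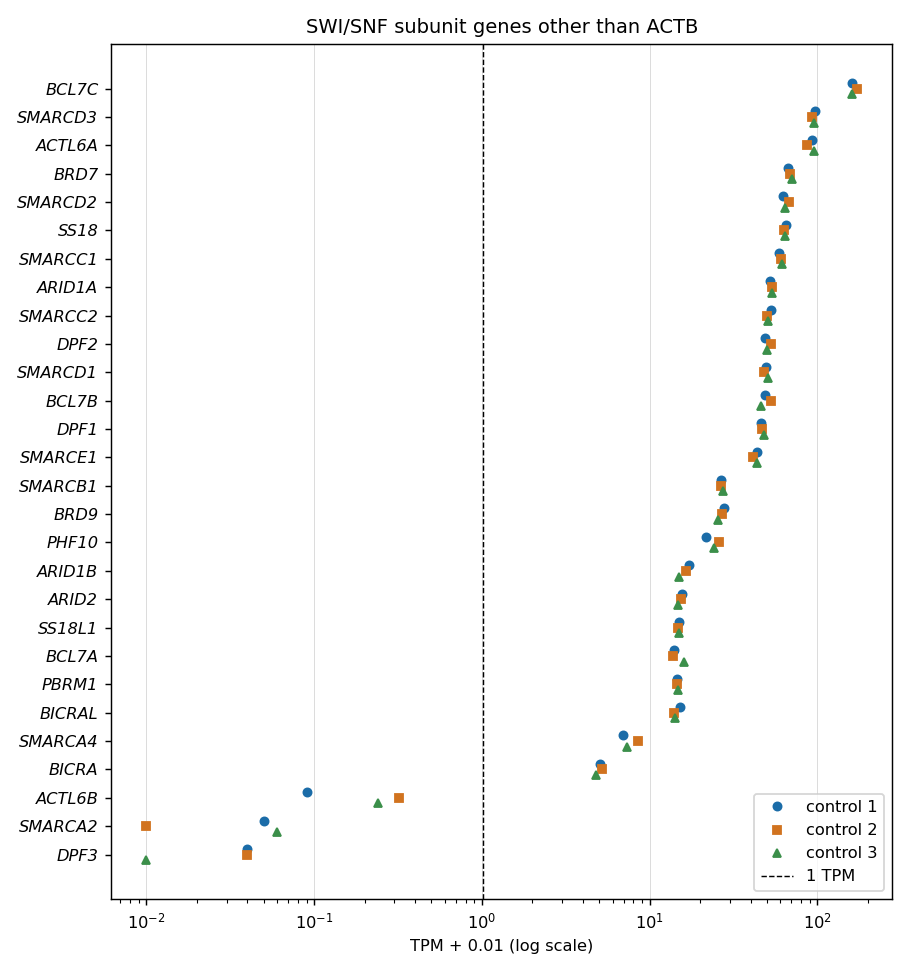
Level of each SWI/SNF subunit gene other than ACTB on a log scale after adding 0.01 TPM, with a marker for each control. SMARCA2 sits near the left edge at 0 to 0.05 TPM, and SMARCA4 at 6.90 to 8.5 TPM is below all but 4 of the other genes.

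The start of SMARCA2 is shown as that of a second gene with almost no reads and a CpG-rich start. The run holds chr9:2015097-2015346 on the plus strand (GRCh38.p14), with capitals as above, and its RefSeq start differs from the start in the gene table given above.
SMARCA2: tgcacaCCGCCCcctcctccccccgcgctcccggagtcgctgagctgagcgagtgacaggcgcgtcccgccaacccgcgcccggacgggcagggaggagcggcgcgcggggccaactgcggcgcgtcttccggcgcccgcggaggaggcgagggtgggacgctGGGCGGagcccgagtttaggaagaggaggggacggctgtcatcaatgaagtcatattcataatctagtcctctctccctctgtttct
It held 2 GGGCGG matches, 1 on each strand, and the 300 bases held 30 CpG with a ratio of 0.901.

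Over all 13447 genes with a start sequence, the median CpG content differed between classes of level. The start used was that of RefSeq, which equals the gene start in the deposited table for 6128 of these genes (45.6%), and the effect of the other starts was not tested. The median ratio of observed to expected CpG was 0.339 in the 503 genes with no count in any control, 0.468 at levels up to 0.1 TPM, 0.605 from there to 1 TPM, 0.800 up to 10 TPM and 0.869 up to 100 TPM. Above 100 TPM it was 0.873 up to 1000 TPM and 0.880 beyond. The share of genes with TATAAA in the 300 bases was 16.3% without a count, 4.34% at 10 to 100 TPM and 8.0% in the 100 genes above 1000 TPM. NTS, with a ratio of 0.121, lay far below the quartiles of its class (0.774 and 0.969), whereas TMSB4X, with 0.960, lay within them. These values are a description across genes, which are not independent replicates. Genes with no count in any control are in the table only through reads in treated samples, so that class does not stand for all silent genes.

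Among 1471 genes annotated as transcription factors, 1014 were expressed (68.9%), with a median of 4.88 TPM, and 39 had at least 100 TPM in each control. ID3, an inhibitor of bHLH factors, had the level of a structural gene at 1589, 1648 and 1604 TPM. SOX17, a factor of endoderm and vessels, led the SOX family at 412, 416 and 424 TPM, far above SOX5 (29.0 ± 2.99 TPM), SOX12 (25.4 ± 0.842 TPM) and the Sertoli cell factor SOX9 (0.0467 ± 0.0289 TPM). HEY1, a target and effector of Notch signals, was at 248.9 ± 3.46 TPM, and the homeobox gene BARX1 was at 126 ± 3.65 TPM.

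Of 29 HOX genes, which specify position along the body axis, 11 were expressed (37.9%). HOXC10 (32.8 ± 0.928 TPM), HOXC9 (11.2 ± 0.801 TPM), HOXC8 (10.1 ± 0.673 TPM), HOXC6 (7.42 ± 0.0208 TPM) and HOXC4 (5.36 ± 0.376 TPM) were the 5 highest, all from the HOXC cluster on chromosome 12. Of the HOXA, HOXB and HOXD clusters the highest gene was HOXA4 with 3.94 ± 0.234 TPM. Other families are given by their highest genes. In the T-box family and in the DLX and MSX family, 2 genes each had at least 10 TPM in each control. NKX2-5, known from the heart, had 55.6 ± 0.580 TPM while NKX3-2 followed with 1.45 TPM, GATA2 had 9.07 ± 0.772 TPM while GATA3, GATA4 and GATA6 had means below 0.1 TPM, and LHX2 (13.3 ± 0.210 TPM), DLX1 (26.6 ± 1.79 TPM) and TBX1 (19.2 ± 0.746 TPM) led the LIM homeobox, DLX and MSX, and T-box families. All 4 TEAD genes were expressed, from 16.7 to 62.6 TPM.

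Of 44 nuclear hormone receptor genes 28 were expressed (63.6%). NR2F1, known as COUP-TFI (272, 285 and 258 TPM), the immediate early gene NR4A2 (209, 211 and 212 TPM), NR5A2, and NR2F2 (91.9 ± 2.77 TPM) were the 4 highest, and the ranges of these neighbours did not overlap. Receptors of estrogen and progesterone were low. ESR2 had 5.99 ± 0.101 TPM, ESR1 had 1.89 ± 0.135 TPM, and PGR had 1.80 ± 0.270 TPM. The glucocorticoid receptor gene NR3C1 was at 10.8 ± 0.777 TPM.

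Receptor tyrosine kinases, which pass growth signals from the cell surface, were expressed for 27 of 58 genes (46.6%). The ephrin receptors EPHA7 (155, 140 and 148 TPM) and EPHA5 (77.3 ± 0.881 TPM) were highest. ERBB4 had 25.9 ± 0.460 TPM and ERBB2 had 23.2 ± 1.39 TPM, while EGFR had 0.0767 ± 0.0306 TPM. IGF1R had 0.273 ± 0.0252 TPM from 24, 29 and 28 counts, and KIT and PDGFRA were at 0.240 ± 0.0400 TPM and 0.0900 ± 0.0529 TPM. Thus 4 of the 5 defining members of this list were not expressed, the exception being FGFR1 at 16.1 ± 0.451 TPM.

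Receptors of the TGF-beta superfamily were expressed for 10 of 11 genes (90.9%), with the BMP receptor BMPR1B highest at 67.0 ± 1.28 TPM. Of 18 receptors for Wnt, Notch and Hedgehog ligands 15 were expressed (83.3%), led by FZD8 (140.2 ± 3.56 TPM) and PTCH1 (42.1 ± 0.860 TPM), a receptor and target gene of Hedgehog signals. GLI1, another Hedgehog target, was at 29.2 ± 1.58 TPM, and SMO, the transducer, was at 22.7 ± 1.02 TPM. Of 25 G protein-coupled and cytokine receptors of the ovary 9 were expressed (36.0%), and FSHR, LHCGR and PRLR, the gonadotropin and prolactin receptors, were all below 0.1 TPM.

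Ligands were set beside their receptors for 12 ligands that were written down after values were seen. For HGF at 1159 ± 43.6 TPM, the receptor gene MET had 3, 5 and 4 counts. For KITLG the receptor gene KIT had 14, 10 and 12 counts, and for VEGFA at 44.7 ± 0.370 TPM the receptor genes FLT1 and KDR had 0.00667 ± 0.00577 TPM and 0.220 ± 0.0656 TPM. In these cases the ligand gene was expressed and the gene of its signalling receptor was not. NTS stood beside SORT1, a sorting receptor for neurotensin at 17.7 ± 0.413 TPM, and NTSR1 and NTSR2 are not among the listed genes. NRG1 (13.7 ± 0.978 TPM) was expressed together with ERBB3 (10.7 ± 0.593 TPM) and ERBB4, and JAG1 (64.6 ± 0.240 TPM) together with NOTCH2 (9.11 ± 0.451 TPM) and NOTCH3 (12.3 ± 0.208 TPM). IGF2 was low at 1.71 ± 0.162 TPM.

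Genes of dividing cells were high. Of 25 proliferation genes 24 were expressed (96.0%), and the median was 97.0 TPM. CDK1, the kinase that drives mitosis, had a level of 596, 543 and 583 TPM. The D cyclins, which start the cell cycle with CDK4 and CDK6, differed by more than their spread, with CCND3 at 724, 767 and 729 TPM, CCND1 at 1.45 ± 0.237 TPM and CCND2 at 0.0133 ± 0.0115 TPM. Of 14 genes in the list of cell cycle inhibitors and related regulators 13 were expressed. CDKN1A (p21) had 192 ± 5.04 TPM, MDM2 had 98.9 ± 1.36 TPM and RB1 had 24.5 ± 0.397 TPM. CDKN2A was at 97.9 ± 1.85 TPM, with 71.4 ± 0.654% in the transcript of p14ARF and 23.2 ± 0.671% in that of p16INK4a.

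Genes of fetal tissue and of tumor antigens were partly on. LIN28B, a repressor of let-7 maturation, had a level of 107, 95.9 and 107 TPM, while its paralog LIN28A was at 0.130 ± 0.0500 TPM. HMGA1 was at 231 ± 10.8 TPM and SALL4 at 34.9 ± 1.18 TPM, whereas the defining member IGF2BP1 had a mean of 0.707 TPM and was not expressed. Of 26 MAGE and other cancer-testis symbols 5 were expressed, and MAGEA4 (485, 495 and 502 TPM) and PRAME (294, 280 and 299 TPM) held most of the summed level. Among genes for antigen presentation, HLA-B and HLA-C had 488 ± 14.1 TPM and 537 ± 6.70 TPM.

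The study treats these cells with 4HC and follows ferroptosis, an iron-dependent death by lipid peroxidation, so the baseline of both systems was read. Of 33 ferroptosis and iron genes 28 were expressed (84.8%), with all 7 defining members among them. FTL and FTH1, the ferritin chains that store iron, had 596 ± 41.3 TPM and 557 ± 14.8 TPM, GPX4, which reduces lipid peroxides, had 376, 374 and 365 TPM, and the transferrin receptor gene TFRC had 144 ± 4.87 TPM. HMOX1, the heme oxygenase, was at 26.5, 32.1 and 29.9 TPM. SLC7A11, the cystine importer that supplies glutathione synthesis, was lowest of the defining members at 3.31, 3.12 and 3.25 TPM. Of 23 genes for handling of CTX 11 were expressed (47.8%). GSTP1 (1181 ± 14.0 TPM) and ALDH1A1 (475, 460 and 496 TPM), a glutathione transferase and an aldehyde dehydrogenase that inactivate CTX metabolites, were highest, and MGMT, which removes alkyl groups from guanine, had 28.2 ± 1.54 TPM. CYP2B6, CYP2C19 and CYP3A4, which activate CTX in the liver, had at most 1 count in any control.

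Silent genes were also described. A count of 0 in each control was found in 687 genes (4.09%), and 2354 genes (14.0%) were below 0.1 TPM in each. The first number depends on the number of samples, since it was 1040 to 1076 when any 1 control was left out, and 2580 genes (15.4%) had under 3 counts in each. Because each gene in the table had a count in at least 1 of the 6 samples of the study, the 687 genes were listed only through reads in treated samples, and their number says nothing about silent genes outside the table. Of 92 olfactory receptor genes 20 were among the 687 and 4 were expressed (4.35%). In the KEGG category of neuroactive ligands and receptors 45 of 261 genes were expressed (17.2%), and of 44 cytochrome P450 genes 8 were (18.2%), led by the sterol enzyme CYP51A1 at 93.2 ± 3.26 TPM. None of 5 TFAP2 genes and none of 5 IRX genes was expressed.

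The 3 controls were close but were not the same library. The chi-square per gene between rounded counts was 2.01 for controls 1 and 2, 1.68 for 1 and 3, and 2.09 for 2 and 3, where sampling alone gives about 1. The biological coefficient of variation (CV), estimated with edgeR, was 0.0259 over 12011 genes. The median CV of TPM was 7.86% for genes of 1 to 10 TPM, 3.90% for 10 to 100 TPM, 2.79% for 100 to 1000 TPM and 2.05% above, while the median CV of 3 samples under counting error alone would be 6.75%, 2.92%, 1.57% and 0.643%. The observed median was above that of counting in each class.

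Among the 10 genes of highest CV of TPM with a mean of at least 100 counts, 5 were readthrough loci, whose symbols join those of 2 neighbouring genes, although such loci made up only 18 of 9966 genes. COMMD3-BMI1 varied most, with 243, 122 and 14.1 counts, and ARPIN-AP3S2 followed with 171, 209 and 39.2 counts. ZNF724 differed in TPM with a CV of 53.4% while its counts were 111, 97 and 109.6. The median CV of counts was 19.1% for readthrough loci and 3.97% for the other genes, at median counts of 160 and 743. Reads of a readthrough locus are shared with its neighbours, and its values are uncertain.

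**Figure D4:**
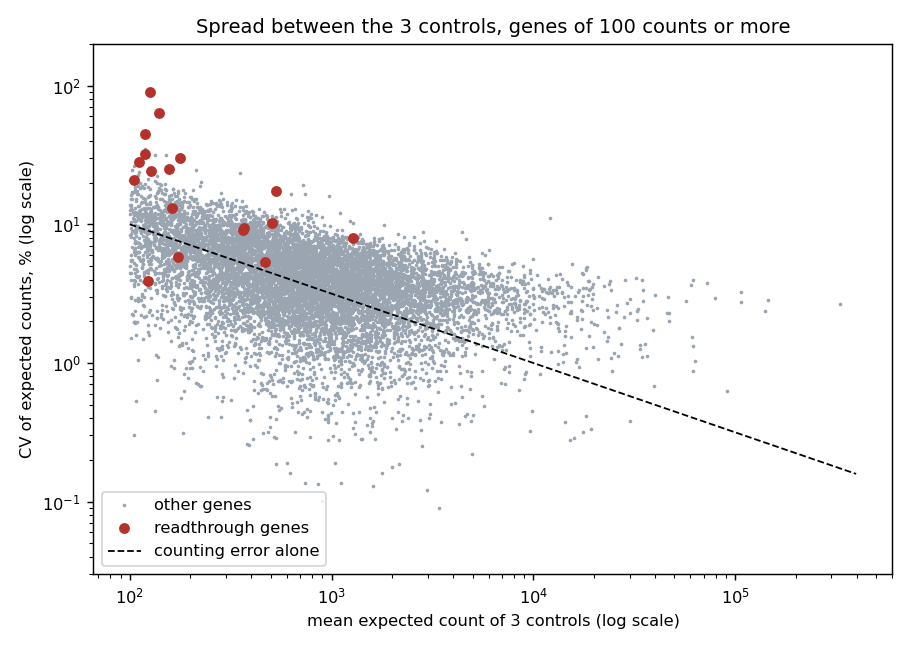
CV of expected counts between the 3 controls against the mean count, both on log scales, for 9966 genes of at least 100 counts on average, with readthrough loci in red and the expected CV from counting error, 1 over the square root of the count, as a dashed line. The red points at the top left are readthrough loci such as COMMD3-BMI1.

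At the level of transcripts, 9179 expressed genes had 2 or more listed transcripts, and the leading one held a median of 66.9% of the TPM of its gene. It held at least 90% in 2000 genes and under 50% in 2651 genes, and the same transcript led in each control in 7467 genes (81.3%). TMSB4X and NTS had 1 transcript each, and in CRYAB 1 of 6 held 96.1 ± 0.0890%. In WT1 the leading transcript held 40.1 ± 3.15% and the next 29.3 ± 1.96%. For SMARCA4 the leading of 16 transcripts held 28.2 ± 5.63%, and its order against the next could not be told from 3 samples. Further copies of a transcript on alternate scaffolds were found for 899 genes, and RPS18 was split into 5 entries of 20.0% each.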

How the data were processed

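Total RNA of untreated COV434 cells was isolated with TRIzol and sequenced. Per the labels, the authors filtered reads with SOAPnuke, and the submitters' processing notes name HISAT2, Bowtie2, RSEM 1.3.1 and GRCh38.p13. The authors deposited expected counts, TPM and FPKM for genes and transcripts in each sample, beside their means per condition, which were not used. The expected counts are not normalized, the deposited TPM are scaled to effective length and a common total, and the deposited FPKM to length and library size, where FPKM served only as an alternative. Whether counting used strand is not given in the sources used here.

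A gene was called expressed at 1 TPM or more in each control. Expected counts were rounded for the chi-square (pair total of at least 10 counts) and for edgeR 4.0.16 in R 4.3.3 (TMM, filterByExpr, common dispersion with an intercept only), whose estimate was tested on simulated data first. No p-value was computed. A gene's level was called different from another's where their 3 values did not overlap. Columns with the authors' fold changes and p-values, and the treated samples, were not used. Gene symbols, coordinates, KEGG categories and transcription factor annotation came from the gene table. Promoter sequences came from RefSeq (GRCh38.p14) and matched 13447 of 16798 genes (80.1%) by NCBI Gene number. Members and lists were chosen with earlier results of these data known. The rule for named genes took the 25 highest levels, in each list the defining members and the 3 highest, the leading gene of each family and the 10 highest CVs; genes outside it were chosen after their values were seen, namely further members of the lists and families given as examples. Genes of the Y chromosome were left out of the named genes, and some genes that the rule names are not reported here. Alternatives were other thresholds, units, filters, scalings (DESeq2 1.42.0) and the removal of each control. Expected counts of 16352898 to 16702316 per sample set the precision, and limits from 0 counts cover counting error only.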

Additional observations from a re-analysis of the deposited data

How the results depend on the processing

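No paired analysis was possible because no conditions were compared and no test was run. The number of expressed genes was 9232 to 12029 over the other thresholds and units tried. Genes without a count numbered 2580 when under 3 counts in each control was taken, and 1040 to 1076 when a control was left out. The first 100 genes by TPM took 43.2% of TPM and 18.0% of expected counts. When genes were ranked anew by counts, the first 100 took 22.1% of expected counts. With ribosomal protein genes left out, the first 100 of the remaining genes took 31.4% of the remaining TPM. The biological CV was 0.0205 without control 2 and up to 0.0282 without another control. The median SD of log2(TPM + 1), 0.0584, became 0.0624 with a pseudocount of 0.1, 0.0545 with FPKM and 0.0444 to 0.0503 when a control was left out. The share of the leading transcript, 66.9%, became 68.1% by counts and 67.2% to 67.3% with a control left out.

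Counts of expressed list members moved by more than 1.5 times as follows. At 0.5 TPM they were 3 for oocyte and germ cell, 4 for Sertoli cell and 5 for epithelium. At 5 TPM they were 0 for Sertoli cell, 1 for epithelium, 3 for mesenchyme, 6 for neural and neuroendocrine, 1 for blood and endothelium, 18 for nuclear hormone receptors, 16 for receptor tyrosine kinases, 6 for TGF-beta superfamily receptors and 4 for receptors of the ovary. With FPKM the count was 1 for blood and endothelium. When a control was left out, the germ cell count was 1 to 2, being 2 without control 1 only. The cause was not tested, except that a stricter or looser threshold by its construction calls fewer or more genes. Of the 10 genes of highest CV, 8 were also among the first 10 by CV of counts, and 5 remained once readthrough loci were left out, both chosen after seeing the data. Means of genes near 0 moved by more than 1.5 times when 1 control was left out, such as INSL3 from 0.567 to 0.275 TPM and NR5A1 from 0.0433 to 0.015 TPM without control 1, and GATA4 from 0.03 to 0 TPM without control 3. Depth limits the values of genes at 3 counts or fewer in every control, such as FOXL2, FSHR, CYP19A1 and SMARCA2.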

Other observations

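Some of the genes with unusually high levels lay beside each other. FAM9C (1243 ± 16.6 TPM) is the next listed gene after TMSB4X (41631 ± 1405 TPM) on the X chromosome, 58.4 kb away. TMEM100 (1773 ± 31.8 TPM) and PCTP (1139 ± 15.0 TPM) are next to each other on chromosome 17, 18.9 kb apart. By contrast the genes next to NTS were at 17.9 ± 0.809 TPM (RASSF9) and 0.140 ± 0.0700 TPM (MGAT4C), and TLR8, on the other side of TMSB4X, was at 0.1 ± 0.05 TPM. Over the 112 genes of at least 1000 TPM on the primary chromosomes, 27 of the 224 next listed genes had at least 100 TPM (12.1%), against 8.30% of all listed genes there. Genes that are not in the table may lie between. These values are given as a description with no test.

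The share of listed genes that were expressed ranged from 58.0% of 616 on the X chromosome to 73.3% of 469 on chromosome 14. Chromosome Y was left out of this range. Another 1040 genes placed on alternate scaffolds (60.6% expressed) were not assigned to a chromosome. Of the zinc finger genes counted by ZNF symbols, 414 of 494 were expressed (83.8%), at a median of 5.42 TPM, and 2 of them reached 100 TPM in each control. Of 53 clustered protocadherin genes 4 were expressed (7.55%). Of 115 oxidative phosphorylation genes 104 were expressed (90.4%), and together they held 3.14 ± 0.0197% of all TPM.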
